A study of Mus musculus with 40 samples.

Results

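Flt3, Csf1r, Notch1, Grap2, Cd28, Ccl3 and Ccr2 are genes that textbooks list as repressed by the transcription factor PAX5 in B cells. Every probe set whose platform annotation gives exactly 1 of these 7 symbols was taken, whatever its values, which gave 13 of the 45037 probe sets tested (7 of 17097 genes). The probe sets were read on 40 arrays of total RNA from J558LuM, a mouse plasmacytoma cell line, that is, a tumour of antibody-secreting plasma cells. The cells had been transduced with the MIR construct, which is the empty vector (7 arrays), or with a construct for wild-type PAX5 (PAX5-WT, 7 arrays) or for an altered PAX5. PAX5-G183S and PAX5-G183V (7 arrays each) change the glycine of the octapeptide motif, PAX5-P80R (6 arrays) changes the paired domain that binds DNA, and PAX5-Δ2-6 (6 arrays) is given by the labels under that name alone. All groups share this host line. Plasma cells normally lose PAX5, so the data describe PAX5 put into a later cell stage than the B cell precursors in which repression of these genes is usually studied. The series title concerns inherited PAX5 changes and B cell leukaemia, and the constructs allow the question of how each change alters what wild-type PAX5 does to genes it is known to repress.

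PAX5 commits lymphoid progenitors to the B cell lineage by switching on B cell genes and switching off genes of other lineages. Its octapeptide motif recruits co-repressors of the Groucho family, encoded by the Tle genes, and these silence genes to which PAX5 is bound. Repression of Flt3, the receptor kinase of early progenitors, and of Csf1r, the macrophage growth factor receptor, is a classic example in pro-B cells. Notch1 is the receptor that directs T cell fate, Grap2 encodes the adaptor GADS of T cell receptor signalling, and Cd28 encodes a co-stimulatory receptor of T cells that plasma cells also carry. Ccl3 is an inflammatory chemokine, and Ccr2 is the receptor that draws monocytes to sites of inflammation.

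The values are log2 signals, so a difference of 1 is a doubling. Array medians lay between 4.21 and 4.27, and the lowest pairwise correlation of arrays over probe sets was 0.989. Precision is limited by how many arrays each group has. The 9 plasma cell markers measured had a mean level between 10.13 and 10.79 on every array. The mean level was 4.37 to 4.61 for the 12 T cell markers, 4.12 to 4.31 for 12 myeloid markers, 3.97 to 4.28 for 8 dendritic cell and progenitor markers and 3.64 to 3.86 for 10 fibroblast markers. These means hide single bright markers. Averaged over all arrays, Cd68 (myeloid) stood at 10.52, Cd3g and Cd6 (T cell) at 8.29 and 6.78, and Meis1 (progenitor) at 6.57. Above the median of all signals lay 3 T cell markers, 1 myeloid, 1 dendritic cell and progenitor and 1 fibroblast marker. The Pax5 probe set (1421765_PM_at) averaged 4.80 over all arrays. It was higher than in MIR by 0.61 ± 0.17 (SE) in PAX5-P80R (limma adjusted p = 0.0348), and the other 4 constructs stood 0.17 to 0.80 above MIR without passing the test. The highest was PAX5-Δ2-6, at 5.23 after adjustment for plate and batch, beside 5.04 in PAX5-P80R and 4.43 in MIR. In PAX5-Δ2-6 against MIR, 0 of 45037 probe sets passed. Whether the Pax5 probe set reads the transduced copy is not stated, so it is a weak check of the labels.

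Each array has its own transduction number, so the p-values rest on how far separate transductions of a single line varied. MIR, PAX5-WT and PAX5-G183S came from transductions 34 to 44 and 58 to 66, except PAX5-G183S replicate 4 (transduction 45). PAX5-G183V, PAX5-P80R and PAX5-Δ2-6 came from transductions 1 to 9 and 46 to 57. MIR, PAX5-WT and PAX5-G183S were therefore compared with each other within transduction series, and PAX5-G183V and PAX5-P80R with PAX5-Δ2-6 within series. All other comparisons ran across series, where series and construct cannot be told apart except through that 1 array. A fit with 4 transduction series links their groups through that array alone. The loss of a call there cannot decide between series and construct. RNA was isolated in 2 batches, both of which held every construct. The 2 plates did not: plate 1 held no array of PAX5-P80R or PAX5-Δ2-6. Comparisons of these 2 with the other groups therefore depend on the plate term of the fit.

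Of the 7 genes, Flt3 and Grap2 carry most of the differences, and they moved in opposite directions. The 250 bases before their RefSeq start are shown for that reason, on the strand of the gene in build GRCm38.p6, with GGAA and its complement TTCC, the core of Ets factor sites, in capitals. Flt3 lies at chr5:147330741-147400489 on the minus strand and the window at chr5:147400490-147400739. Grap2 lies at chr15:80572597-80652854 on the plus strand and the window at chr15:80623233-80623482, inside the annotated gene, since RefSeq also has transcripts that start further upstream.
Flt3: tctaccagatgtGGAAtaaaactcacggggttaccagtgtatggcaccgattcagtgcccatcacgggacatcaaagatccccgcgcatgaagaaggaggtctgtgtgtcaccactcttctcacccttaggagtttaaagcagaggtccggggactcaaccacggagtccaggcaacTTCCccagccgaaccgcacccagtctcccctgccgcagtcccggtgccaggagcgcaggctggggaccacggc
Grap2: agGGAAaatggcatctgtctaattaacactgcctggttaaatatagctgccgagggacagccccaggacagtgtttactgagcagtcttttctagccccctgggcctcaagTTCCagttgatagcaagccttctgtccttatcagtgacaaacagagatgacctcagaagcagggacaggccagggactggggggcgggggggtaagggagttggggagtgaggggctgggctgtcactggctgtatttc

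A total of 3 motifs were searched on both strands of these windows. GGAA occurred 2 times in Flt3 and 2 times in Grap2, and in 93.4% of the 32851 windows of the same length. CANNTG, the E-box, occurred 1 time in Flt3 and 2 times in Grap2, and in 66.2% of all windows, and in Grap2 1 of the matches shares its first base with an Ets core. The stretch GCGTGAC of the PAX5 consensus occurred in none of the 5 member genes with a window (Flt3, Grap2, Notch1, Ccl3 and Ccr2) and in 1.78% of all windows.

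Flt3 was higher with wild-type PAX5 and with both octapeptide constructs than with the empty vector. It was raised less with PAX5-P80R and did not pass the test with PAX5-Δ2-6. One probe set (1419538_PM_at) measured it, with a mean of 5.93, above 68.4% of all probe sets. In MIR the lowest, median and highest arrays stood at 4.55, 5.18 and 5.75. In PAX5-WT they stood at 5.89, 6.68 and 7.13, so every PAX5-WT array lay above every MIR array. In PAX5-G183S they were 6.02, 6.23 and 6.67, and in PAX5-G183V 6.09, 6.47 and 6.81, both again clear of MIR. In PAX5-P80R they were 5.32, 5.84 and 6.09, which overlaps the upper MIR arrays. In PAX5-Δ2-6 they were 5.00, 5.25 and 5.77, within or just above the range of MIR.

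**Figure D1:**
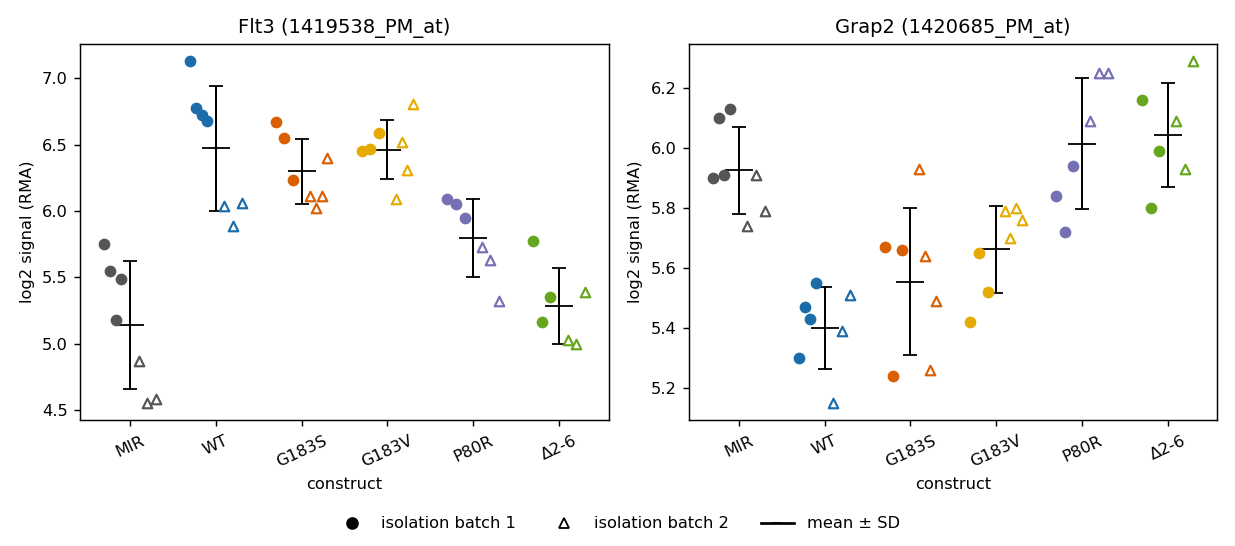
Log2 signal of Flt3 (left) and Grap2 (right) on each of the 40 arrays by construct; filled circles are isolation batch 1, open triangles isolation batch 2, and bars the mean ± SD. All Flt3 arrays of PAX5-WT, PAX5-G183S and PAX5-G183V lie above the highest MIR array (5.75), while all Grap2 arrays of PAX5-WT lie below the lowest MIR array (5.74).

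Flt3 rose by 1.33 ± 0.13 (SE, n = 7 and 7) on the log2 scale in PAX5-WT against MIR, or 2.52-fold (limma adjusted p = 1.15e-09). PAX5-G183S gave a rise of 1.23 ± 0.13, or 2.34-fold (limma adjusted p = 1.14e-08). PAX5-G183V gave 1.39 ± 0.13, or 2.63-fold (limma adjusted p = 4.82e-10). The direction is opposite to the repression for which Flt3 is known, and it was shared by the constructs with an altered octapeptide. Of 45037 probe sets, 674, 619 and 817 likewise had no overlap between the arrays of the 2 groups in these 3 comparisons, all of which use the same MIR arrays. PAX5-P80R gave 0.69 ± 0.14, or 1.61-fold (limma adjusted p = 0.00327). That call was lost without batch terms (adjusted p = 0.0503) and in isolation batch 1 alone (0.0553). It was also lost with a replicate block in the fit, and with 4 transduction series in the fit (0.614) or as a random block (0.0607). With 4 series in the fit, 70 of 45037 probe sets passed in this comparison, beside 1154 in the main fit. PAX5-Δ2-6 differed from MIR by 0.17 ± 0.14, with a 95% interval of -0.12 to 0.46.

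Neither octapeptide construct differed from wild-type PAX5 at Flt3 beyond the spread. PAX5-G183S minus PAX5-WT was -0.10 ± 0.13 (limma adjusted p = 0.995), with a 95% interval of -0.36 to 0.16. PAX5-G183V minus PAX5-WT was 0.06 ± 0.13 (limma adjusted p = 0.92), with an interval of -0.20 to 0.32, and PAX5-G183V minus PAX5-G183S was 0.16 ± 0.13, with an interval of -0.10 to 0.42. The intervals admit differences of up to -0.36 and 0.42, so they do not show that the constructs act alike. PAX5-Δ2-6 lay below PAX5-WT by -1.16 ± 0.14 (limma adjusted p = 4.14e-07), with no overlap (as in 971 of 45037 probe sets), and PAX5-P80R by -0.65 ± 0.14 (limma adjusted p = 0.0041). Both of these calls cross series and were lost with 4 transduction series in the fit (0.235 and 0.89). In that fit 79 and 50 of 45037 probe sets passed in these comparisons, beside 1923 and 1842 in the main fit. The PAX5-P80R call was also lost in isolation batch 2 alone (0.138). PAX5-G183V exceeded PAX5-Δ2-6, made in the same transduction series, by 1.22 ± 0.14 (limma adjusted p = 2.12e-07).

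Ordered by level after adjustment for plate and batch, Flt3 ran from PAX5-G183V (6.50), PAX5-WT (6.44) and PAX5-G183S (6.34) to PAX5-P80R (5.79), PAX5-Δ2-6 (5.28) and MIR (5.11). The first 3 did not differ between neighbours, nor did the last 2. PAX5-G183S exceeded PAX5-P80R by 0.54 ± 0.14 (limma adjusted p = 0.02; 4.47% of all probe sets passed that comparison). PAX5-P80R exceeded PAX5-Δ2-6 by 0.51 ± 0.14 (limma adjusted p = 0.0416). That call stood in only 3 of the 12 fits with 1 array of either group left out, those without PAX5-P80R replicate 6, PAX5-Δ2-6 replicate 1 or PAX5-Δ2-6 replicate 6, and in neither isolation batch alone (0.115 and 0.276). It was also lost without batch terms, with the transduction series as a random block and with array weights.

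The Flt3 difference between the 2 isolation batches was not of the same size in every construct, but no test of this passed. The batch 2 mean minus the batch 1 mean was -0.83 in MIR and -0.83 in PAX5-WT, and the rise of PAX5-WT over MIR was 1.33 in each batch. The batch 2 mean minus the batch 1 mean was -0.33 in PAX5-G183S, -0.07 in PAX5-G183V, -0.47 in PAX5-P80R and -0.29 in PAX5-Δ2-6. The rise over MIR was 0.96 in batch 1 and 1.47 in batch 2 for PAX5-G183S, and 0.97 and 1.75 for PAX5-G183V. Against PAX5-WT, both octapeptide constructs were lower in batch 1 (-0.38 and -0.36) and higher in batch 2 (0.14 and 0.42). The difference between batches was 0.77 ± 0.22 for PAX5-G183V against MIR (limma adjusted p = 0.129, unadjusted 0.00137). Against MIR it was also 0.55 ± 0.23 in PAX5-Δ2-6 (limma adjusted p = 0.528), 0.52 ± 0.22 in PAX5-G183S and 0.37 ± 0.23 in PAX5-P80R. For PAX5-G183V against PAX5-WT, a test added after the values were seen, it was 0.78 ± 0.22 (limma adjusted p = 0.0942). None of these passed.

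**Figure D2:**
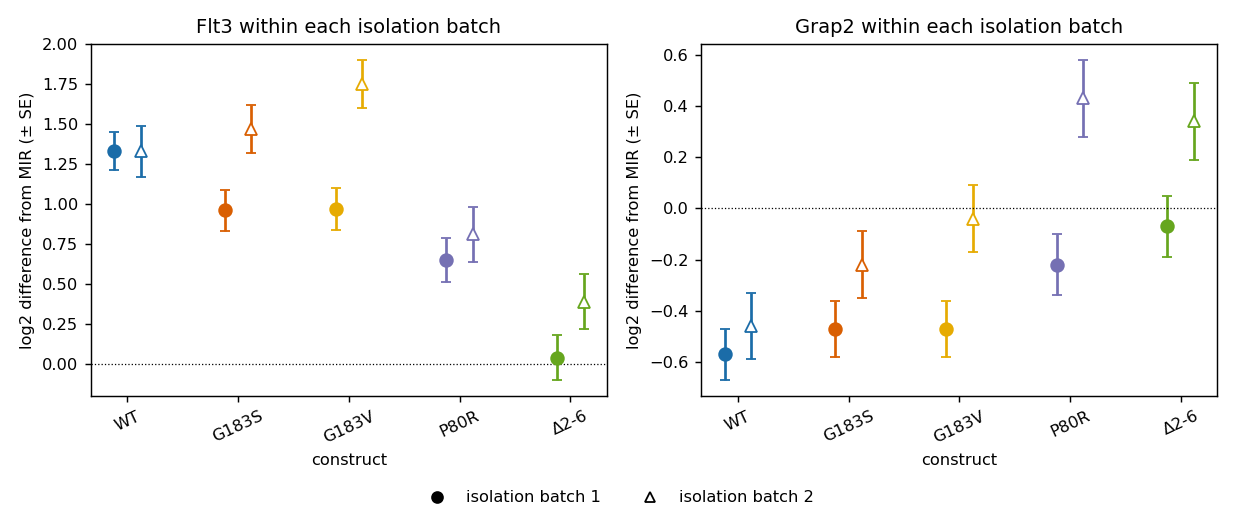
Difference from MIR in log2 signal (± SE) for Flt3 (left) and Grap2 (right), fitted in isolation batch 1 (circles) and isolation batch 2 (triangles) alone. Flt3 in PAX5-WT stands at 1.33 in both batches, Flt3 in PAX5-G183V at 0.97 and 1.75, and Grap2 in PAX5-G183V at -0.47 and -0.04.

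Grap2, the GADS adaptor, was lower with wild-type PAX5 and with PAX5-G183S than with the empty vector, and did not pass the test with PAX5-G183V, PAX5-P80R or PAX5-Δ2-6. Its brighter probe set (1420685_PM_at, mean 5.75) stood at 5.74, 5.91 and 6.13 on the lowest, median and highest MIR arrays. The same arrays of PAX5-WT were at 5.15, 5.43 and 5.55, clear of MIR (as in 674 of 45037 probe sets). PAX5-G183S ranged from 5.24 to 5.93 (median 5.64) and PAX5-G183V from 5.42 to 5.80 (5.70), and both overlapped the lower MIR arrays. PAX5-P80R (5.72 to 6.25, median 6.01) and PAX5-Δ2-6 (5.80 to 6.29, median 6.04) covered much of the MIR range and lay above every PAX5-WT array.

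Grap2 fell by 0.53 ± 0.09 (SE, n = 7 and 7) in PAX5-WT against MIR (limma adjusted p = 0.000243) and fell by 0.38 ± 0.09 in PAX5-G183S (limma adjusted p = 0.0116). In PAX5-G183V the difference was -0.27 ± 0.09 (limma adjusted p = 0.0834), which passed only after another quantile normalization (-0.32, adjusted p = 0.0348). PAX5-P80R stood at 0.07 ± 0.11 and PAX5-Δ2-6 at 0.10 ± 0.11 from MIR. The wild-type difference was -0.57 in isolation batch 1 (limma adjusted p = 0.00304) and -0.46 in batch 2, which alone did not pass (0.177). For PAX5-G183S it was -0.47 and -0.22 (0.589 in batch 2). The PAX5-G183S call was also lost on plate 2 alone (0.14) and with only these groups in the fit (0.0742). In PAX5-WT against MIR, only 1 member probe set passed on plate 2 alone. The wild-type calls of Flt3 and Grap2 therefore did not both stand there, and no contrast between PAX5-WT and PAX5-G183S is drawn from that setting.

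Set against wild-type PAX5, Grap2 was higher by 0.59 ± 0.11 in PAX5-P80R (limma adjusted p = 0.000302) and by 0.62 ± 0.11 in PAX5-Δ2-6 (limma adjusted p = 0.000108), both without overlap (as in 739 and 971 of 45037 probe sets). With 4 transduction series in the fit these were 0.26 and 0.29 and did not pass (0.936 for each). Both values rest on PAX5-G183S replicate 4, which at 5.93 was the highest PAX5-G183S array. The PAX5-P80R difference was 0.36 in isolation batch 1, which did not pass alone (0.154), and 0.89 in batch 2 (0.00221). The octapeptide constructs stood in between. PAX5-G183S exceeded PAX5-WT by 0.14 ± 0.09 (limma adjusted p = 0.98), with a 95% interval of -0.05 to 0.34. PAX5-G183V exceeded PAX5-WT by 0.25 ± 0.09 (limma adjusted p = 0.325), with an interval of 0.06 to 0.45, and passed only with 3 transduction series in the fit (0.41, adjusted p = 0.0167). Under that setting 1178 of 45037 probe sets passed in this comparison, beside 13 in the main fit. Within its own series PAX5-G183V lay below PAX5-Δ2-6 by -0.37 ± 0.11 (limma adjusted p = 0.0418). The call stood in only 4 of 13 fits with 1 array left out, those without PAX5-G183V replicate 2 or 4 or PAX5-Δ2-6 replicate 2 or 5. It stood in neither isolation batch alone (0.227 and 0.219). The second Grap2 probe set (1460280_PM_at) was dim, from 3.46 to 4.05 on all arrays, and passed in none of the 12 comparisons.

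Notch1 was measured by 2 probe sets well above the middle of the array, and Csf1r by 1. The brighter Notch1 probe set (1418634_PM_at, mean 7.01) ranged from 6.85 to 7.14 in MIR (median 7.05), 6.59 to 7.07 in PAX5-WT (6.81), 6.66 to 7.17 in PAX5-G183S (6.79) and 6.87 to 7.42 in PAX5-G183V (7.04). All 4 ranges overlap. The differences from MIR were -0.18 ± 0.08 in PAX5-WT (limma adjusted p = 0.287), -0.21 ± 0.08 in PAX5-G183S (0.159) and 0.04 ± 0.08 in PAX5-G183V (0.839). The PAX5-G183S difference passed only without its replicate 4 (-0.27, adjusted p = 0.032). PAX5-G183V stood above PAX5-WT by 0.22 ± 0.08 (limma adjusted p = 0.311) and above PAX5-G183S by 0.25 ± 0.08 (0.499). PAX5-G183S minus PAX5-WT was -0.03 ± 0.08 (0.998). PAX5-P80R (7.00 to 7.36) exceeded PAX5-WT by 0.36 ± 0.09 (limma adjusted p = 0.0109), a call that neither isolation batch gave alone (0.363 and 0.0505). With 4 transduction series in the fit the difference was -0.04. That value rests on PAX5-G183S replicate 4, the highest PAX5-G183S array (7.17), and no reversal is drawn from it. The other Notch1 probe set (1418633_PM_at, mean 5.82) gave 0.29 ± 0.09 for the same comparison (limma adjusted p = 0.0789), which passed without PAX5-P80R replicate 1 (0.0365). PAX5-Δ2-6 exceeded PAX5-WT by 0.30 ± 0.09 there (limma adjusted p = 0.0622). This difference passed without PAX5-WT replicate 1 or 3 or PAX5-Δ2-6 replicate 5 (lowest 0.018). In the same probe set PAX5-G183V stood above PAX5-WT by 0.20 ± 0.08 (limma adjusted p = 0.409) and above PAX5-G183S by 0.18 ± 0.08 (0.636). PAX5-G183S minus PAX5-WT was 0.02 ± 0.08 there (0.999).

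Csf1r (1423593_PM_a_at, mean 5.28) ranged from 4.97 to 5.47 in MIR and from 5.27 to 5.68 in PAX5-WT, with medians of 5.27 and 5.51. The difference was 0.22 ± 0.08 (limma adjusted p = 0.177). PAX5-G183S (5.02 to 5.48) and PAX5-G183V (4.96 to 5.32) stood closer to MIR, with medians of 5.28 and 5.10, as did PAX5-P80R (4.94 to 5.49, median 5.19) and PAX5-Δ2-6 (5.05 to 5.69, median 5.24). Lower values than in PAX5-WT were therefore not limited to the octapeptide constructs: PAX5-P80R differed from PAX5-WT by -0.24 ± 0.09 (limma adjusted p = 0.157) and PAX5-Δ2-6 by -0.13 ± 0.09 (0.585). Against PAX5-WT, PAX5-G183S differed by -0.24 ± 0.08 (limma adjusted p = 0.769; 95% interval -0.41 to -0.07) and PAX5-G183V by -0.35 ± 0.08 (limma adjusted p = 0.0982; interval -0.52 to -0.18). The latter was the member difference between an octapeptide construct and wild type with the smallest p, and was -0.37 in batch 1 and -0.33 in batch 2. It passed only with 3 transduction series in the fit (-0.36, adjusted p = 0.0347). Under that setting 1178 of 45037 probe sets passed in this comparison, beside 13 in the main fit. With 4 series in the fit 0 passed, and with the series as a random block 1.

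**Figure D3:**
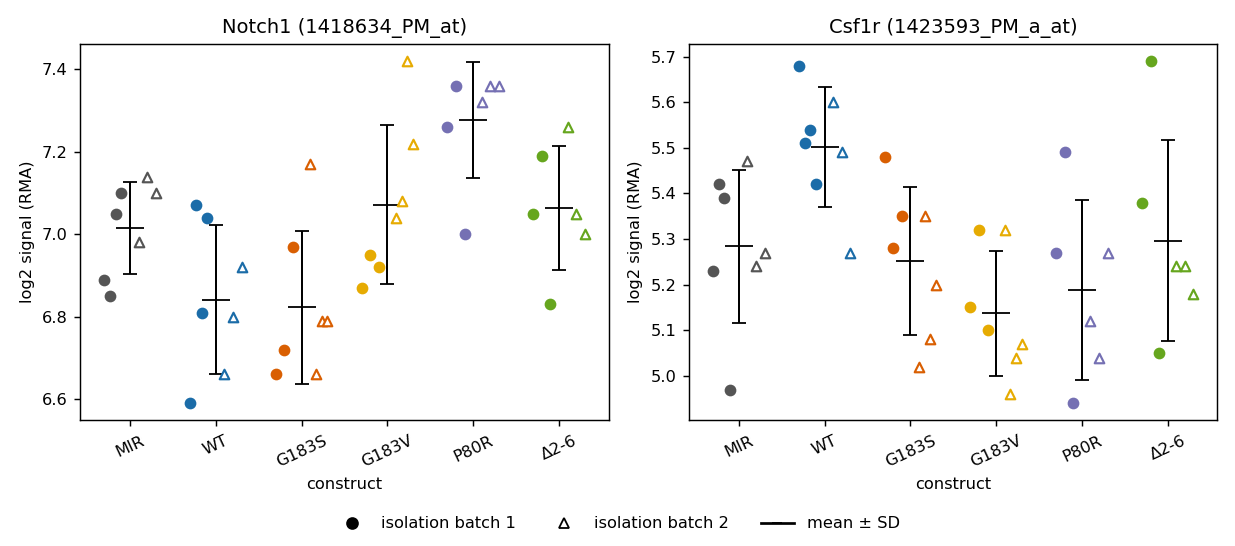
Log2 signal of the brighter Notch1 probe set (left) and of Csf1r (right) on each array by construct, drawn as in the plot of Flt3 and Grap2. The medians of Csf1r are 5.51 in PAX5-WT, 5.28 in PAX5-G183S and 5.10 in PAX5-G183V, and the ranges of neighbouring groups overlap.

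Cd28 had the highest signals of the 7 genes, and neither of its probe sets passed in the 12 comparisons as fitted here. Its probe sets averaged 9.26 and 8.47, above 90.5% and 85.9% of all probe sets. The first had medians of 9.18 in MIR, 9.23 in PAX5-WT, 9.21 in PAX5-G183S and 9.28 in PAX5-G183V, and the differences of these 3 constructs from MIR were between -0.01 and 0.01 with SE 0.07. In the first probe set PAX5-P80R (9.39 to 9.62) lay above every PAX5-WT array, by 0.20 ± 0.07 (limma adjusted p = 0.132). The arrays of these 2 groups had no overlap in 739 of 45037 probe sets. In the second (1437025_PM_at) the 2 groups overlapped, at 8.46 to 8.75 and 8.22 to 8.48, with a difference of 0.24 ± 0.08 (limma adjusted p = 0.0939). This difference was 0.34 in isolation batch 1, where it passed alone (0.0247), and 0.11 in batch 2 (0.76), and it also passed with array weights (0.0365). The mean of both probe sets passed as well (0.22, adjusted p = 0.0393).

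Ccl3 and Ccr2 were near the bottom of the signal range, where a change in the RNA moves the signal little. Ccl3 (1419561_PM_at) had a mean of 3.76 and arrays between 3.48 and 4.24. Its differences from MIR were -0.12 ± 0.07 in PAX5-WT, -0.07 ± 0.07 in PAX5-G183S and -0.08 ± 0.07 in PAX5-G183V. They were larger in PAX5-P80R (-0.22 ± 0.08, limma adjusted p = 0.149) and PAX5-Δ2-6 (-0.24 ± 0.08, limma adjusted p = 0.547). None of them passed the limma test. Of the 4 Ccr2 probe sets, with means of 3.36 to 3.89, 1 passed in 1 comparison. This probe set (1421186_PM_at) ranged from 3.38 to 3.64 in MIR and from 3.13 to 3.37 in PAX5-G183S, without overlap (as in 619 of 45037 probe sets). It fell by 0.26 ± 0.07 (limma adjusted p = 0.0299), and the call was lost in 7 of 14 fits with 1 array left out, those without MIR replicate 3, 4 or 6 or without PAX5-G183S replicate 1, 3, 4 or 7 (highest adjusted p = 0.0936). The other 3 Ccr2 probe sets did not pass in that comparison.

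Counted over all 13 probe sets, 2 passed in PAX5-WT against MIR (Flt3 and Grap2), where 3.86% of all probe sets passed. In PAX5-G183S against MIR 3 passed (Flt3, Grap2 and Ccr2; background 3.73%), and in PAX5-G183V 1 passed (Flt3; 5.73%). In PAX5-P80R against MIR 1 passed (Flt3; 2.56%), and in PAX5-Δ2-6 against MIR none did, with limma at 0% of all probe sets and 2 member probe sets at an unadjusted p under 0.05. Between PAX5-G183S and PAX5-WT no member passed (0.0333% of all probe sets did, and 1 member had an unadjusted p under 0.05). Between PAX5-G183V and PAX5-WT none passed either (0.0289%; 4 at an unadjusted p under 0.05), nor between PAX5-G183V and PAX5-G183S (0%; 3). In PAX5-P80R against PAX5-WT 3 passed (4.09%), in PAX5-Δ2-6 against PAX5-WT 2 (4.27%), in PAX5-G183V against PAX5-Δ2-6 2 (3.08%) and in PAX5-P80R against PAX5-Δ2-6 1 (1.78%). With 13 probe sets such small counts are a description of these genes, not a statement about repressed genes as a class.

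**Figure D4:**
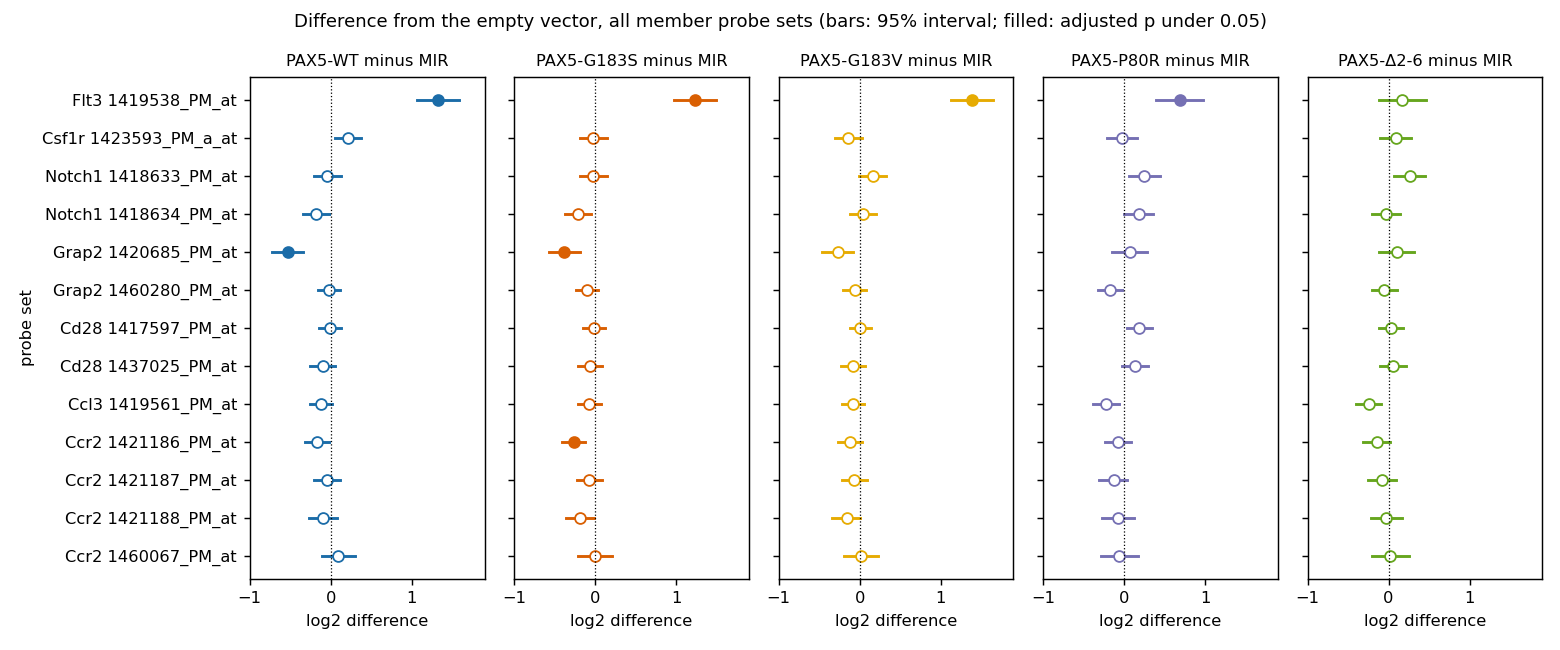
Difference from MIR in log2 signal, with its 95% interval, for each of the 13 probe sets (rows) and 5 constructs (panels); filled points passed an adjusted p under 0.05. Flt3 stands apart at 1.33, 1.23 and 1.39 in the first 3 panels, and it stands at 0.69 in PAX5-P80R, and the largest difference of another gene is -0.53, for Grap2 in PAX5-WT.

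Other genes of the same pathways were described at the probe set with the highest mean of each gene, where 5.19% of 17097 genes passed in PAX5-WT against MIR, 5.01% in PAX5-G183S and 7.66% in PAX5-G183V. Among 16 genes of FLT3 signalling, 1 rose in PAX5-WT, 1 in PAX5-G183S and 4 in PAX5-G183V, and none fell. Of these 16, 14 lay above the median of all signals. With dim probe sets left out, 3012 of 24787 passed in PAX5-G183V against MIR, beside 2582 of 45037 with them. The median differences of the list were 0.07, 0.08 and 0.12, beside 0.01, 0.00 and 0.01 over all genes. Gab2, an adaptor of receptor kinases, rose by 0.71 ± 0.07 in PAX5-WT (limma adjusted p = 1.23e-09), 0.58 in PAX5-G183S and 0.63 in PAX5-G183V. It also rose in PAX5-P80R against MIR, by 0.31 ± 0.08 (limma adjusted p = 0.0146). The other 3 in PAX5-G183V, named after their values were seen, were Stat5a (0.41), the ligand gene Flt3l (0.35) and Cbl (0.15), which encodes a ubiquitin ligase. Of 11 genes of CSF1R signalling, none passed in PAX5-WT or PAX5-G183S and 1 rose in PAX5-G183V, Dok1 (0.27), seen likewise.

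Of 28 genes of the Notch pathway, 1 fell in PAX5-WT, the protease gene Adam17 (-0.21 ± 0.06; limma adjusted p = 0.0197). In PAX5-G183S 1 fell, and in PAX5-G183V 2 rose and 2 fell. Of 18 genes of CD28 and T cell receptor signalling, 3 rose and 1 fell in PAX5-WT, and 4 rose and 1 fell in each octapeptide construct. Ctla4, the inhibitory counterpart of CD28, rose by 0.39 ± 0.09, and Cd80, a ligand of both, by 0.37 ± 0.10 in PAX5-WT. Pik3r1, a subunit of PI3 kinase, fell by 0.40 ± 0.09 there. Of 19 CC chemokines and receptors, 1 passed in these 3 comparisons, Ccr10 in PAX5-G183V (-0.46), a gene named after its value was seen.

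Of 17 other genes known as repressed by PAX5, 1 fell in PAX5-WT, 1 in PAX5-G183S and 2 in PAX5-G183V, and none rose. Xbp1, the driver of the secretory programme of plasma cells, fell by 0.14 ± 0.04, 0.16 and 0.15. Of 8 octapeptide co-repressor genes, Tle1, a Groucho family member, rose by 0.34 ± 0.08 in PAX5-WT (limma adjusted p = 0.00678), 0.41 in PAX5-G183S and 0.29 in PAX5-G183V, and 1 further gene rose in PAX5-G183V. No gene of these lists passed in limma between PAX5-G183S and PAX5-WT (0.0585% of all genes did) or between PAX5-G183V and PAX5-WT (0.0526%).

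Beside the rise of Flt3, none of the 8 dendritic cell and progenitor markers, 12 myeloid markers or 10 fibroblast markers passed in PAX5-WT, PAX5-G183S or PAX5-G183V against MIR. Of 12 T cell markers, none passed in PAX5-WT and 1 rose in each octapeptide construct, Cd6 (0.37 and 0.57), named after its values were seen. Cd6 also rose in PAX5-P80R against MIR, by 0.46 ± 0.10 (limma adjusted p = 0.00755). Of 9 plasma cell markers, 4 fell in PAX5-WT, 4 in PAX5-G183S and 5 in PAX5-G183V. These counts include the falls of Xbp1 and Jchain given above. Ly6c1, a surface protein, fell by 0.92 ± 0.08, 0.95 and 0.80, and the elongation factor genes Ell2 and Eaf2 fell by 0.33 ± 0.06 and 0.22 ± 0.05 in PAX5-WT. The part of the plasma cell markers in the member differences was not tested.

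Over the 40 arrays, after removal of plate and batch effects, the genes whose level followed Flt3 most closely were Ablim1 (Pearson r = 0.94), Ubqln1 (0.92), Rasgrf2 (0.90), Nup160 (0.90) and Man2a1 (0.90). For Grap2 they were C1galt1c1 (0.83), Ada (0.81) and Niban2 (0.80), and for the brightest Ccr2 probe set, which is not the one that passed, Tex37 (0.67), Rusf1 (0.64) and Sh3d21 (0.56). Without removal of plate and batch effects the coefficients were 0.70 to 0.86 for the Flt3 genes and 0.70 to 0.81 for the Grap2 genes, while Rusf1 stood at 0.07 with Ccr2. Flt3 and Grap2 correlated at -0.59 with each other, and Notch1 and Grap2 at 0.57. The correlations run over arrays that share constructs, so differences between groups enter them, and they describe likeness alone.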

How the data were processed

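Per the submitters' processing notes, RMA was run before deposit, and the log2 values deposited by the authors entered the fits without further change. RMA sets all arrays to a common distribution, so a shift shared by most genes would not show. Of 45141 probe sets, 104 controls were left out. Symbols come from the platform annotation (28898 probe sets with 1 gene, 551 with several, 15588 with none), and loci and promoter windows from RefSeq (GRCm38.p6, 5 of 7 members with a window). Constructs, plates, isolation batches and transduction numbers come from the labels.

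With R 4.3.3 and limma 3.58.1, all 40 arrays were fitted with terms for 6 constructs, 2 plates and 2 isolation batches. Benjamini-Hochberg adjustment ran over 45037 probe sets within each of 12 comparisons, and "passed" means an adjusted p under 0.05. The median SE for PAX5-WT against MIR was 0.0806. The procedure was tested on simulated data. Replicate numbers were not taken to pair arrays: of 96 same-numbered pairs, 10 had deviations correlated above 0.1 (range -0.225 to 0.189).

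All member probe sets are described. Of each list up to 3 genes passing in PAX5-WT against MIR with the largest difference were named, and by correlation 5 genes for Flt3 and 3 for other members with a call against MIR. The members and lists were chosen with earlier results of these data known. Alternatives covered batch terms, single batches, plate 2, transduction series, a replicate block, the groups fitted, normalization, dim probe sets, moderation, array weights, the unit tested, a minimum of 1.5-fold, and leaving out single arrays.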

Additional observations from a re-analysis of the deposited data

Results flagged for a closer look

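Within the 78 groups of 6 or 7 arrays formed by the 13 probe sets and 6 constructs, 3 held 1 array far from the others, where chance gives about 1 in 20 groups. For Notch1 (1418634_PM_at), PAX5-P80R replicate 3 stood at 7.00, below the other 5 arrays at 7.26 to 7.36. For Cd28 (1437025_PM_at), PAX5-G183S replicate 7 stood at 8.85, above the others at 8.21 to 8.43. For Ccr2 (1421188_PM_at), the same replicate stood at 3.60, above the others at 3.38 to 3.47.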

How the results depend on the processing

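Each of 156 differences (13 probe sets, 12 comparisons) was recomputed under up to 16 other settings, 3 of which (dim probe sets left out, 1 probe set per gene, the mean of a gene's probe sets) covered 7 of the 13. Of the values so obtained, 2227 kept their side of the threshold, 38 lost a call, 14 gained one and 1 reversed. The last was Notch1 in PAX5-P80R against PAX5-WT, at -0.04 with 4 transduction series, a fit that links these groups through 1 array. The number of member probe sets that passed changed by over 1.5 times as follows. With a 1.5-fold minimum it was 1 in PAX5-WT against MIR, 1 in PAX5-G183S against MIR, 1 in PAX5-G183V against PAX5-Δ2-6 and 0 in PAX5-P80R against PAX5-Δ2-6. Without batch terms it was 0 in PAX5-P80R against MIR and against PAX5-Δ2-6. In isolation batch 1 alone it was 0 in both of these and 1 in PAX5-G183V against PAX5-Δ2-6. In isolation batch 2 alone it was 0 in PAX5-P80R against PAX5-Δ2-6 and 1 in PAX5-WT and PAX5-G183S against MIR, PAX5-P80R against PAX5-WT and PAX5-G183V against PAX5-Δ2-6. On plate 2 alone it was 1 in PAX5-WT and PAX5-G183S against MIR and in PAX5-G183V against PAX5-Δ2-6. With 3 series it was 2 in PAX5-G183V against PAX5-WT, where 1178 of 45037 probe sets passed. With 4 series it was 0 in PAX5-P80R against MIR and PAX5-WT and in PAX5-Δ2-6 against PAX5-WT, all linked through 1 array there. With the series as a random block it was 0 in PAX5-P80R against MIR and PAX5-Δ2-6. With the replicate block it was 0 in PAX5-P80R against MIR, 1 in PAX5-P80R against PAX5-WT and 1 in PAX5-G183V against PAX5-Δ2-6, while the other 9 counts stayed within 1.5 times. With only the compared groups it was 1 in PAX5-G183V against PAX5-Δ2-6, with quantile normalization again 2 in PAX5-G183V against MIR, with array weights 0 in PAX5-P80R against PAX5-Δ2-6, and with the mean of a gene's probe sets 2 in PAX5-P80R against MIR and 1 in PAX5-G183V against PAX5-Δ2-6. With each array left out in turn the count ran from 1 to 2 in PAX5-G183V against PAX5-Δ2-6 and from 0 to 1 in PAX5-P80R against PAX5-Δ2-6. Fewer arrays are the construction of the single batch and plate settings; otherwise the cause was not tested. Of the 13 member probe sets, 6 lay below the median of all signals, which limits what Ccl3, Ccr2 and the second Grap2 probe set can show.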
